A study of Mus musculus with 10 samples.

Results

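The small leucine-rich proteoglycans of connective tissue were followed in mouse dorsal root ganglia (DRG) through 10 genes: Dcn, Lum, Bgn, Fmod, Ogn, Prelp, Aspn, Omd, Podn and Dpt. They were taken by gene symbol from a list drawn up with earlier results of these data known, and the transcripts that carry each symbol were summed. The 10 genes are part of 54309 annotated genes, 20836 of which passed the filter on low counts, and all 10 members passed it. Female and male C57BL/6 (C57BL6/J) mice of 6 to 8 weeks had the left sciatic nerve either cut across its whole width (axotomy) or exposed and left uncut (sham). The L4 and L5 ganglia of the operated side were taken 24 h later and sequenced as 2 sham libraries and 3 axotomy libraries of each sex. Each of these was made from 2 pooled mice, so that the spread between libraries is a spread between pools of whole ganglia. The labels name no engineered allele, and all mice were operated on under isoflurane.

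These proteins are secreted into the matrix between cells, where their curved leucine-rich repeats bind collagen fibrils and set how the fibrils form and pack. Many of them also carry sulfated sugar chains and hold or present growth factors such as TGF-beta. In peripheral ganglia and nerve they are products of the connective tissue sheaths and the fibroblasts within them rather than of neurons. Dermatopontin, encoded by Dpt, is not a leucine-rich protein itself but a small matrix protein that binds decorin, and it was kept under the name of the group for that reason.

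A run of cysteines ahead of the repeats sorts the family into classes, and it is shown here because members of several classes rose in males. Fmod, of the same class as Lum, did not pass the test, which does not show that it differed from the other members. The stretches are coding sequence from the first to the last cysteine codon of that run, read from Gencode M21 transcripts (GRCm38), with the cysteine codons in capitals. All 9 transcripts had the same length in that release as in the release M27 used for the deposited values.
Dcn: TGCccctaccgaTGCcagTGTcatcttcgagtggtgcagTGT
Bgn: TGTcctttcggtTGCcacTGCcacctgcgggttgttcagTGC
Lum: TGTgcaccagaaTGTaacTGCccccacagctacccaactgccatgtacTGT
Fmod: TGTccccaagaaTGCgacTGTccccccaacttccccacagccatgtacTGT
Ogn: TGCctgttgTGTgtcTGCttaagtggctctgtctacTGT
Podn: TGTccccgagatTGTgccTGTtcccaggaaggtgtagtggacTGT
In GRCm38 these stretches lie in coding exons at chr10:97483507-97483548 for Dcn, chrX:73490979-73491020 for Bgn, chr10:97568353-97568403 for Lum, chr1:134040449-134040499 for Fmod and chr13:49615566-49615604 for Ogn, all on the plus strand, and at chr4:108027042-108027086 on the minus strand for Podn. Dcn, Bgn and Aspn had 3, 1 and 6 codons between the cysteines. Lum, Fmod, Prelp and Omd had 3, 1 and 9, Ogn had 2, 1 and 6, and Podn had 3, 1 and 7. No such run was found in Dpt. Several members are neighbours in the genome: Lum follows Dcn on chromosome 10, Aspn, Omd and Ogn lie in a row on chromosome 13, and Prelp and Fmod lie near each other on chromosome 1.

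The libraries held 55258476 to 90111671 estimated counts, with the highest total in male axotomy 2, and 3.01% to 5.11% of the counts were mitochondrial. The members were counted from 29 counts for Dpt in its lowest library to 65022 for Dcn in its highest. Counting error therefore weighs most on Dpt, Omd and Aspn. Fmod held 134 to 461 counts, near the 221 to 447 of Podn. Its SE of the male log2FC was nevertheless 0.44, against 0.23 for Podn. In the fit across all genes, the median log2 fold change (log2FC) was 0.00 in females and 0.03 in males. Levels are given as TPM, a transcript abundance scaled by length and library size. On that scale the median change of all tested genes after axotomy was −0.12 in females and −0.17 in males (log2 ratio of mean TPM). A member's TPM ratio therefore understates its log2FC. Male axotomy 2 had the lowest level of its group in 9 of the 10 members, and male axotomy 3 had the highest level of all 10 libraries in 9.

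After axotomy, connective tissue proteoglycans rose in males. A total of 9 of 10 members passed the test upward and none downward (edgeR quasi-likelihood test, padj under 0.1), beside 21.8% of all tested genes that were called higher. In females 0 members passed in either direction by edgeR, beside 20.1% of all tested genes called, with 1 member at an unadjusted p under 0.05 (29.1% of all genes) and 1 called by DESeq2 (Prelp, lower, beside 13% of all genes called lower by that tool). In TPM, 7 members had all male axotomy libraries above both male sham libraries, beside 17.2% of all tested genes, and 9 did on the scale of the fit (TMM), beside 29.3%. In females 5 members (Dcn, Bgn, Prelp, Omd and Podn) had all axotomy libraries below both sham libraries in TPM, beside 37.3% of all tested genes, and 4 did on the TMM scale, beside 25.9%. Those 4 also lay above sham in males on that scale, and 1.44% of all tested genes had both positions. The median log2FC of the 10 members was 0.88 in males and −0.16 in females. The male log2FC was above the female one in every member, but the difference between the sexes passed the test for 0 members by edgeR, with 9 at an unadjusted p under 0.05 and 5 called higher by DESeq2, beside 2.43% of all genes called higher by that tool.

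**Figure D1:**
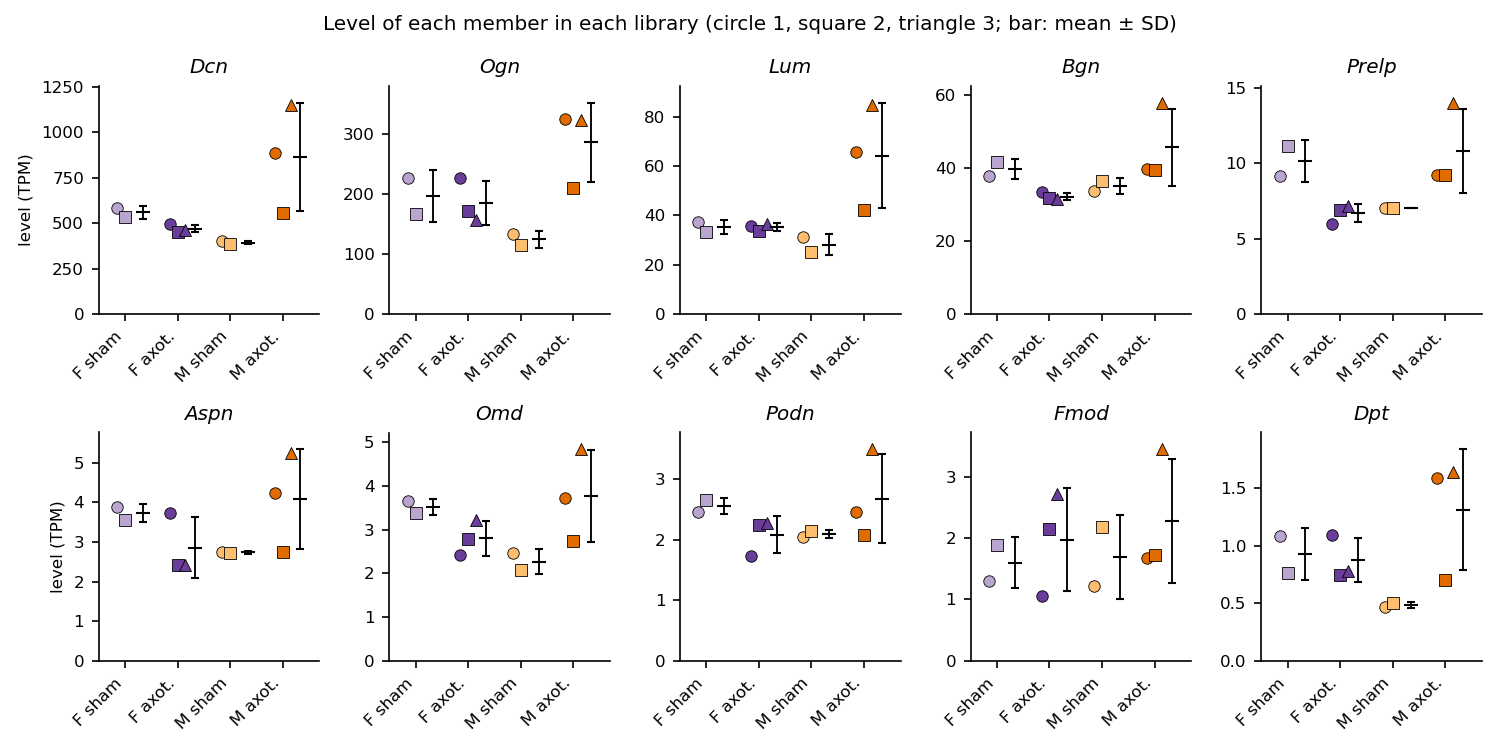
Level of each member (TPM, linear axis from 0) in each of the 10 libraries, by group (F female, M male, axot. axotomy); symbols mark the replicate number and bars the mean ± SD of 2 or 3 libraries. The male axotomy libraries are spread widely, from 556 to 1149 TPM for Dcn, with library 2 near the female levels and library 3 on top in 9 of 10 members.

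Decorin, which binds collagen and TGF-beta and carries a chondroitin or dermatan sulfate chain, was the most abundant member by far. Dcn stood at 585 and 535 TPM in the female sham libraries and at 400.3 and 386 TPM in the male sham libraries. After axotomy it was 494, 454 and 463 TPM in females and 885, 556 and 1149 TPM in males. All 3 male axotomy libraries were above both male sham libraries, whereas all 3 female axotomy libraries were below both female sham libraries. The fit gave a log2FC of 1.35 (SE 0.27, edgeR padj = 0.00573) in males, a rise of 2.55-fold with a 95% interval of 1.67 to 3.90. In females it was −0.13 (SE 0.26, edgeR padj = 0.785), with an interval of 0.61-fold to 1.37-fold. The male increase therefore started from the lowest sham levels, and male axotomy 2 at 556 TPM lay between the female sham libraries.

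The other class I members were biglycan, the closest relative of decorin and a soluble ligand of Toll-like receptors, and asporin, which restrains TGF-beta and usually lacks a sugar chain. Bgn was 38.0 and 41.8 TPM in female and 33.7 and 36.6 in male sham libraries, and after axotomy 33.4, 32.0 and 31.5 in females and 39.9, 39.5 and 57.9 in males. Its male axotomy libraries did not overlap male sham, and its female axotomy libraries were all below female sham. The male log2FC was 0.58 (SE 0.17, edgeR padj = 0.0272), a smaller value than the 1.35 of Dcn, and the female value was −0.19 (padj = 0.518). Aspn was low, with 3.89 and 3.56 TPM in female and 2.76 and 2.71 in male sham libraries, and after axotomy 3.74, 2.40 and 2.41 in females and 4.24, 2.74 and 5.25 in males. Its male axotomy 2 library fell between both male sham libraries in TPM. Aspn passed in males at a log2FC of 0.78 (SE 0.31, edgeR padj = 0.0760) and lost the call in 6 of the 10 fits that left out 1 library.

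Among the class II members, which carry keratan sulfate or bind other matrix molecules, lumican moved most. Lum, an organiser of collagen fibrils best known in the cornea, was 37.3 and 33.4 TPM in female sham and 31.1 and 25.3 in male sham libraries. After axotomy it was 35.8, 33.6 and 36.7 TPM in females and 65.6, 42.3 and 84.9 in males. Every male axotomy library exceeded all 7 others, and Lum was the 1 member of which male axotomy 2 was above all female libraries. The male log2FC of 1.40 (SE 0.28, edgeR padj = 0.00566) stood against a female log2FC of 0.12 (SE 0.27, padj = 0.809). The male value was close to that of Dcn, the neighbouring gene.

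PRELP, which binds both collagen and heparan sulfate at basement membranes, was the member with the clearest opposite movement. Prelp was 9.15 and 11.1 TPM in female sham and 7.05 and 7.03 in male sham libraries, and after axotomy 6.00, 6.90 and 7.14 in females and 9.24, 9.19 and 14.0 in males. In females every axotomy library was below every sham library, and in males every axotomy library was above. The female log2FC was −0.49 (SE 0.19, edgeR padj = 0.118), against a male value of 0.82 (SE 0.19, edgeR padj = 0.00944). The female value missed the threshold here and passed it in DESeq2 (padj = 0.0601) and when the female libraries were fitted alone (edgeR padj = 0.0163). Without male axotomy 2 it passed at an edgeR padj of 0.0566, and without male axotomy 3 at 0.0129.

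Osteomodulin and fibromodulin complete that class. Omd, a keratan sulfate proteoglycan named for bone, was 3.65 and 3.39 TPM in female and 2.47 and 2.07 in male sham libraries, and after axotomy 2.42, 2.78 and 3.21 in females and 3.72, 2.74 and 4.84 in males. Its male log2FC was 0.93 (SE 0.26, edgeR padj = 0.0195) and its female log2FC −0.21 (padj = 0.625). Fibromodulin guides collagen cross-linking and is prominent in tendon. Fmod was 1.31 and 1.90 TPM in female and 1.21 and 2.19 in male sham libraries, and after axotomy 1.06, 2.15 and 2.72 in females and 1.68, 1.72 and 3.45 in males. The replicates of every group differed, the groups overlapped, and neither the male log2FC of 0.63 (SE 0.44, edgeR padj = 0.304) nor the female log2FC of 0.41 (SE 0.44, padj = 0.590) passed. The male interval of Fmod ran from 0.78-fold to 3.06-fold, so these libraries do not show that Fmod differed from the other members.

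Osteoglycin, a class III member also called mimecan, was second in abundance. Ogn was 228 and 166 TPM in female and 134 and 115 in male sham libraries, and after axotomy 227, 171 and 157 in females and 325, 210.1 and 323 in males. Male axotomy lay above male sham in all libraries, but male axotomy 2 was below 2 of the 5 female libraries. Its male log2FC was 1.41 (SE 0.27, edgeR padj = 0.00502) and its female log2FC 0.03 (SE 0.26, padj = 0.949). Podocan, a more distant relative first described in the kidney glomerulus, was 2.46 and 2.65 TPM in female and 2.05 and 2.14 in male sham libraries, and after axotomy 1.73, 2.25 and 2.27 in females and 2.46, 2.07 and 3.49 in males. Podn passed in males at a log2FC of 0.56 (SE 0.23, edgeR padj = 0.0861) and kept the call in 2 of the 10 fits that left out 1 library. In the lowest library 67.2% of the Podn counts fell on protein-coding transcripts, against 98.8% or more for each other member.

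Dermatopontin, the partner of decorin, was the least abundant member. Dpt was 1.09 and 0.77 TPM in female and 0.47 and 0.51 in male sham libraries, and after axotomy 1.10, 0.75 and 0.78 in females and 1.59, 0.70 and 1.64 in males. All male axotomy libraries were above both male sham libraries, and male axotomy 2 was below all 5 female libraries. The male log2FC was 1.63 (SE 0.42, edgeR padj = 0.0132), a rise of 3.10-fold with an interval of 1.64 to 5.87, and the female log2FC was 0.04 (SE 0.39, padj = 0.959). Its interval overlapped those of Dcn, Lum and Ogn.

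**Figure D2:**
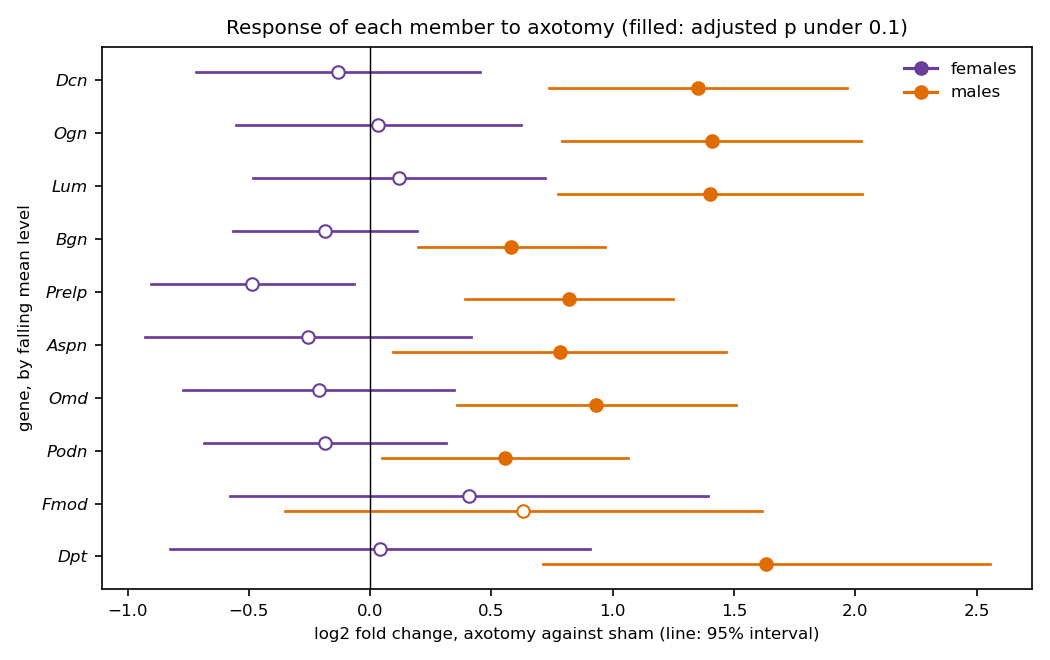
Log2 fold change of each member after axotomy against sham in females and males (points) with 95% intervals (lines), genes ordered by falling mean level; filled points passed an adjusted p under 0.1. The 9 filled points are all in males, from 0.56 for Podn to 1.63 for Dpt, and the male and female intervals do not overlap for Dcn, Lum, Ogn, Prelp, Bgn or Omd.

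The order of levels was stable. Over all libraries the mean was 591 TPM for Dcn, 206 for Ogn, 42.6 for Lum, 38.4 for Bgn, 8.68 for Prelp, 3.37 for Aspn, 3.13 for Omd, 2.36 for Podn, 1.94 for Fmod and 0.94 for Dpt. Dcn was above Ogn, Ogn above Lum, Bgn above Prelp and Prelp above Aspn in all 10 libraries. Lum and Bgn changed places, with Lum above Bgn in 6 of 10 libraries. Neighbours at the low end were in this order in 8 or 9 of 10 libraries. Dcn made up 61.3% to 69.7% of the summed member level, which was 800.0 and 909 TPM in female and 579 and 616 in male sham libraries, and after axotomy 706 to 806 in females and 867 to 1648 in males.

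The sexes already differed in the sham libraries in direction, though not by the test. In TPM, 9 of 10 members were lower in both male sham libraries than in both female sham libraries, and Fmod was the exception. That share stands beside 18.7% of all tested genes with the same non-overlap in TPM and 20.6% on the TMM scale. By edgeR 0 members passed, beside 0.0432% of all genes, with 3 members (Ogn, Prelp and Omd) at an unadjusted p under 0.05, beside 3.22% of all genes, and DESeq2 called 0, beside 0.157%. The male minus female difference between the shams on the log2 scale was −0.52 (SE 0.29) for Dcn, −0.67 (SE 0.29) for Ogn and −0.94 (SE 0.45) for Dpt. The 95% intervals of Ogn, Prelp and Omd excluded 0 before adjustment and those of the other 7 members did not.

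After axotomy the fitted male level was above the female one in every member, though most of these differences did not pass the test. Dcn, Lum, Bgn and Prelp were higher in all 3 male axotomy libraries than in all 3 female ones, beside 7.25% of all tested genes with the same position in TPM. Prelp was the 1 member to pass the edgeR test between the axotomy groups, with a log2 difference of 0.77 (SE 0.17, padj = 0.0882), beside 1.16% of all genes called higher, and DESeq2 called 4 members higher, beside 4.56%. The values for Dcn were 0.96 (SE 0.24, edgeR padj = 0.117) and for Lum 0.95 (SE 0.24, padj = 0.125).

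The difference between the male and the female response is the sum of the difference after axotomy and the reverse difference between the shams. For Dcn the response difference of 1.48 (SE 0.37, 95% interval 0.65 to 2.32, edgeR padj = 0.241) was made of 0.96 after axotomy and 0.52 between shams. For Prelp it was 1.31 (SE 0.27, edgeR padj = 0.194), of which 0.54 came from the shams, and for Dpt 1.59 (SE 0.57, padj = 0.342), of which 0.94 did. Over the 9 members other than Fmod, the sham libraries supplied 25.03% to 58.9% of the response difference, with a median of 41.0%. Fmod was left out, with a response difference of 0.22 (SE 0.62) and males higher by 0.08 in sham. The shares rest on 2 sham libraries of each sex and have no interval. The 95% intervals of the response difference excluded 0 for the 9 members before adjustment, beside 11.4% of all genes at an unadjusted p under 0.05. None of the 10 passed after adjustment, beside 0.0192% of all genes.

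The calls for the response difference changed with the libraries included and, as given above, with the tool. Without male axotomy 2, 9 of 10 members passed the test of the response difference upward, beside 10.5% of all tested genes called in either direction and 5.71% called higher. In that fit the difference was 1.75 for Dcn (edgeR padj = 0.00256), 1.54 for Lum (padj = 0.00530) and 1.46 for Prelp (padj = 0.0174). Likewise 9 members passed upward between the axotomy groups without male axotomy 2, beside 17.3% of all genes called in either direction and 8.81% called higher. Without male axotomy 3, Prelp alone passed the test of the response difference (1.04, edgeR padj = 0.0858), beside 0.0529% of all genes called higher, and no member did between the axotomy groups, beside 0.216%. Male axotomy 2 was above both female sham libraries in TPM for 1 of 10 members, male axotomy 1 for 6 and male axotomy 3 for all 10. Against the male sham libraries it was above both for 7 members, male axotomy 1 for 9 and male axotomy 3 for 10.

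**Figure D3:**
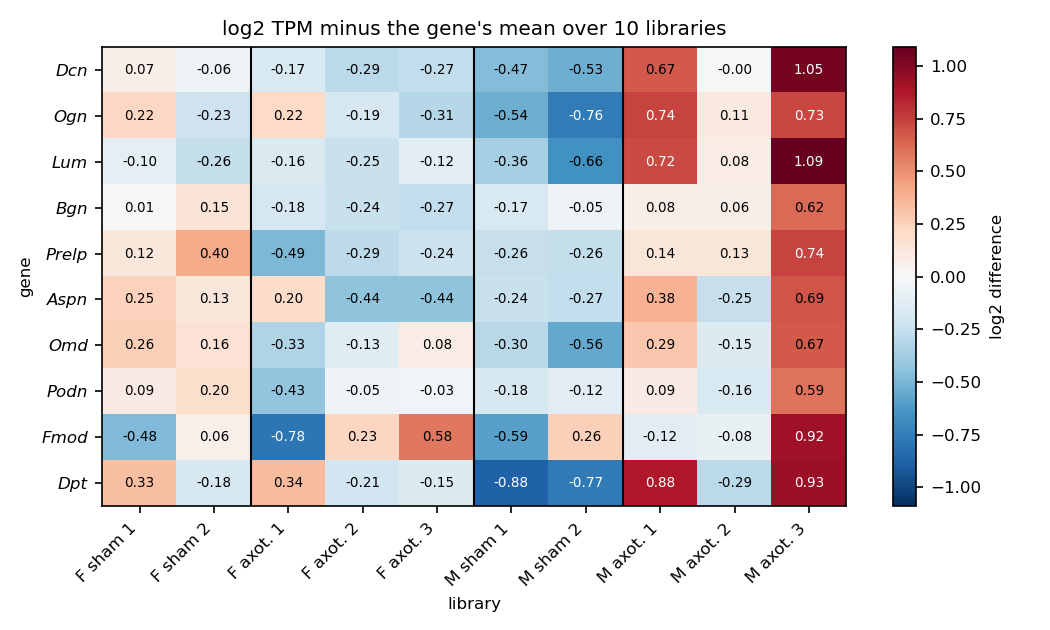
Log2 TPM of each member minus its own mean over the 10 libraries (colour and printed value), with lines between the 4 groups. Both male sham columns are below 0 in all members but Fmod, male axotomy 3 is above 0 in every member, and male axotomy 2 lies between −0.29 and 0.13.

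The members moved together across libraries. The Pearson r of log2 CPM (counts scaled by library size) over the 10 libraries, which share depth and group differences, was 0.98 for Dcn and Lum, 0.94 for Dcn and Ogn and 0.91 for Dcn and Bgn. Over the 36 pairs without Fmod it ran from 0.66 to 0.98 with a median of 0.86. The 9 pairs with Fmod ran from 0.21 to 0.74. When each group's mean was taken out, so that only replicate differences remained, Dcn and Lum still had an r of 0.97 and the 36 pairs a median of 0.80. Among 14914 other genes, the one most like the members was Igfbp6, a binding protein of insulin-like growth factors (mean r 0.88 with the members, 0.99 with Dcn). It was followed by the matrix protein gene Smoc2, the ferroxidase gene Cp, Casp12, Zfp931, the mast cell protease gene Cpa3, Hacd4, Ackr3, Scara3 and Zic1, with mean r from 0.87 to 0.86.

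Within Dcn, the transcript Dcn-201 held 62.0% to 74.5% of the counts and Dcn-202 25.1% to 37.7%. Dcn-201 averaged 73.1% in female sham and 72.4% in male sham against 65.03% in female axotomy and 63.7% in male axotomy libraries. These shares rest on how Salmon divides read pairs between transcripts that share most of their sequence, and they were not tested.

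Markers of the cells that make these proteins moved with the members in males. Of 14 fibroblast markers, 9 rose and 0 fell in males, beside 21.8% of all tested genes called higher and 20.1% lower. In females 1 marker rose (Ly6a) and 1 fell (Lama2), beside 10.4% and 9.74%. The summed level of the 14 markers was 992 to 1121 TPM in male axotomy and 1091 to 1152 in male sham. Thy1, which neurons also express, held 49.1% to 67.6% of that sum. Without Thy1, a choice made after that was seen, the sum was 437 to 527 TPM in male axotomy, 374 to 381 in male sham, 358 to 377 in female axotomy and 385 to 394 in female sham libraries. Pdgfra, a defining fibroblast gene, was 5.31, 4.55 and 6.12 TPM in male axotomy, 4.12 and 3.59 in male sham, 3.76, 4.70 and 4.47 in female axotomy and 5.33 and 6.48 in female sham libraries. It rose in males (log2FC 0.67, edgeR padj = 0.0110) and did not pass in females (−0.34, padj = 0.187). In bulk tissue, more fibroblasts in a ganglion and more RNA per fibroblast cannot be told apart.

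On the scale of the fit the median male log2FC was 0.73 over the 14 markers and 0.88 over the 10 members. The scavenger receptor gene Scara5, at a male log2FC of 1.72, was above every member, and Dcn, Lum, Ogn and Dpt were above the other 13 markers, the next of which was the microfibril gene Mfap5. Omd was below 4 of the markers, Prelp and Aspn below 6, and Bgn, Fmod and Podn below 9. The marker sum without Thy1 gives most weight to the most abundant markers, and its male axotomy mean was 1.27-fold of sham. Divided by that sum, Dcn was 1.89, 1.27 and 2.18 in male axotomy against 1.05 and 1.03 in male sham libraries. The ratios of Dcn, Lum, Ogn, Prelp and Dpt in males rose above sham with no overlap between the groups, beside 6.27% of all tested genes, and those of the other 5 members overlapped. Divided by Pdgfra, the ratio of Dcn, Lum, Ogn, Omd and Dpt in males was higher without overlap, beside 4.07% of all tested genes. For Bgn, Fmod and Podn the mean ratio to Pdgfra in males was 0.93, 0.93 and 0.91 of that in sham. In females 0 of 10 members had a higher ratio to the marker sum without overlap, beside 21% of all tested genes, and 3 had a lower one (Dcn, Bgn and Prelp), beside 23.7%, with a median fold of 0.87 over the members. Divided by Pdgfra, which was itself lower in all female axotomy than in both female sham libraries, 1 member was higher (Lum, beside 48.3% of all tested genes) and 1 lower (Prelp, beside 4.53%), with a median fold of 1.13.

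Other cell markers moved in the same libraries. In males 9 of 9 macrophage, 7 of 7 myelinating Schwann cell, 5 of 5 erythrocyte, 7 of 12 meningeal and 6 of 7 perineurial markers rose, and 6 of 10 sensory neuron markers fell with 1 that rose. In females 1 of 9 macrophage, 0 of 7 Schwann cell, 0 of 5 erythrocyte, 0 of 12 meningeal and 2 of 7 perineurial markers rose, and 4 of 10 neuron markers fell. Over all tested genes, 21.8% were called higher and 20.1% lower in males, and 10.4% and 9.74% in females. Some lists followed less in males: 0 of 7 endothelial markers rose and 2 fell, and 1 of 6 neutrophil markers rose. Smooth muscle and pericyte markers split, with 3 of 8 higher and 3 lower, and 3 of 6 satellite glia markers rose. In females 1 marker rose in each of the neutrophil, smooth muscle and satellite glia lists, and 0, 1 and 3 fell. The summed erythrocyte level was 12212, 6464 and 19809 TPM in male axotomy libraries 1, 2 and 3, 3523 to 3995 in male sham, 4809 to 7149 in female sham and 2768 to 8777 in female axotomy libraries. The macrophage sum was 121 to 184 TPM in male axotomy, 60.5 to 62.2 in male sham, 73.9 to 92.7 in female sham and 93.2 to 118 in female axotomy libraries. Male axotomy 3 was highest and male axotomy 2 lowest of its group in both sums, as they were in the summed member level. The part of the sheath, blood and immune cells in the male rise of the members was not tested. Tendon, cartilage and bone markers summed to 24.98 to 27.03 TPM in female sham and 28.2 to 28.4 in male sham libraries. After axotomy their sum was lower in both sexes, at 15.2 to 18.1 TPM in females and 14.2 to 21.03 in males. Of 8 such markers tested, 1 rose and 3 fell in males, and 0 rose and 3 fell in females. Matn1 and Bglap were at 0 in some libraries. Skeletal muscle markers passed in neither sex, with 132.7 TPM at most.

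**Figure D4:**
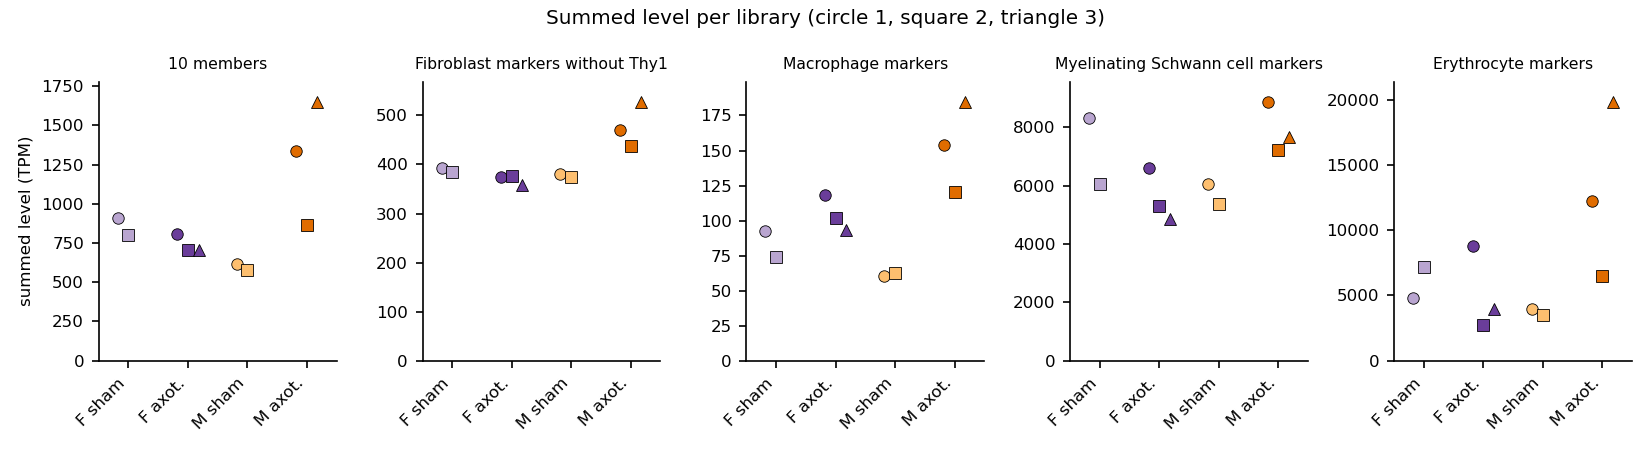
Summed TPM per library (linear axes from 0, with a scale of their own) of the 10 members and of fibroblast (without Thy1), macrophage, myelinating Schwann cell and erythrocyte markers; symbols mark the replicate number. Male axotomy 3 is the highest library in the member, fibroblast, macrophage and erythrocyte panels, at 1648, 527, 184 and 19809 TPM.

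The collagen machinery that these proteoglycans work with moved the same way in males. Of 20 fibril collagen genes and partners, 13 rose and 2 fell in males, and 1 rose and 8 fell in females (median log2FC 0.47 and −0.32). The shares of all genes were 21.8% called higher and 20.1% lower in males, and 10.4% and 9.74% in females. Col3a1, a fibril collagen of soft tissue, had a log2FC of 1.05 (SE 0.25, edgeR padj = 0.0108) in males and −0.30 (padj = 0.444) in females, and Col6a3, of the beaded collagen VI, 1.01 (SE 0.19, padj = 0.00326) and −0.01 (padj = 0.978). Comp, a cartilage and tendon matrix protein that binds collagen, fell in both sexes, by 1.04 in each on the log2 scale. Of 21 collagen processing and cross-linking genes, 10 rose and 2 fell in males against 4 and 2 in females (median log2FC 0.36 and 0.13). The collagen chaperone gene Serpinh1 rose by a log2FC of 1.39 (SE 0.18, edgeR padj = 0.000918) and the procollagen protease enhancer gene Pcolce by 1.09 (SE 0.18, padj = 0.00186) in males, with 0.26 and 0.14 in females, where neither passed. The lysyl oxidase relative Loxl2 rose in both sexes (0.94 in males and 0.82 in females).

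Enzymes of the chondroitin and dermatan sulfate chains were called lower more often than higher in males. Of 21 such enzymes tested, 1 rose and 9 fell in males, and 0 rose and 2 fell in females (median log2FC −0.25 and −0.09). The other 11 did not pass in males. Beside these counts, 21.8% of all genes were called higher and 20.1% lower in males, and 10.4% and 9.74% in females. Xylt2, which starts the chain, fell in both sexes, with a log2FC of −0.73 (SE 0.17, edgeR padj = 0.00892) in males and −0.51 (padj = 0.0755) in females. The sulfotransferase genes Chst14 and Chst12 fell in males, with a log2FC of −0.59 (SE 0.14, edgeR padj = 0.00999) and −0.52 (SE 0.09, padj = 0.00246). Of 8 keratan sulfate enzymes, Chst2 rose and Chst5 fell in males, and Chst2 rose in females. Large proteoglycans and link proteins also fell more often than they rose, in both sexes. Of 10 tested, 1 rose and 6 fell in males, and 0 rose and 3 fell in females (median log2FC −0.71 and −0.49). The link protein gene Hapln4 had a log2FC of −1.10 (SE 0.24, edgeR padj = 0.00698) in males and −0.99 (padj = 0.0255) in females. Hapln1 had −0.98 (SE 0.33, edgeR padj = 0.0498) in males and −0.72 (padj = 0.192) in females. The exception that rose was Vcan, which encodes versican (log2FC 1.42 in males, SE 0.23, edgeR padj = 0.00193, and 0.02 in females).

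Of 7 other leucine-rich proteoglycan genes tested, 4 rose and 0 fell in males, and 1 rose and 1 fell in females. For this list and the receptors, the shares of all genes were 21.8% higher and 20.1% lower in males. In females they were 10.4% and 9.74%. Ecm2, which lies just ahead of Aspn on chromosome 13, had a log2FC of 0.85 (SE 0.21, edgeR padj = 0.0106) in males and −0.43 (padj = 0.187) in females, and Tsku, which encodes tsukushi, 0.99 (SE 0.28, padj = 0.0200) and 0.56 (padj = 0.210). Kera and Optc were under the count filter. Of 10 receptors and co-receptors of soluble decorin and biglycan, 7 rose and 2 fell in males against 1 and 2 in females (median log2FC 0.52 and −0.09). Egfr and Met, growth factor receptors that decorin binds, had male log2FC of 1.24 (SE 0.17, edgeR padj = 0.000913) and 1.17 (SE 0.22, padj = 0.00303), with −0.12 and 0.10 in females, where neither passed. Cd14, a co-receptor of biglycan on macrophages, rose by 1.42 in males (SE 0.21, edgeR padj = 0.00132). Its female log2FC was 0.45 (SE 0.20, edgeR padj = 0.170).

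Proteases and TGF-beta genes were the last lists, beside 21.8% of all genes called higher and 20.1% lower in males. The female shares were 10.4% and 9.74%. Of 8 proteases that cleave small proteoglycans, 4 rose and 0 fell in males and 1 rose in females. Mmp19 (log2FC 1.74, SE 0.26, edgeR padj = 0.00142) and the gelatinase gene Mmp2 (1.46, SE 0.27, padj = 0.00342) passed in males, with 0.55 and 0.16 in females, where neither passed, and Adamts1 rose in both sexes (1.10 in males and 0.97 in females). Of 12 TGF-beta genes, 6 rose and 4 fell in males and 0 rose and 3 fell in females. Ltbp4, which tethers latent TGF-beta to the matrix, rose by 0.84 in males (SE 0.17, edgeR padj = 0.00515), while Ltbp2 fell in both sexes (−0.82 in males and −1.02 in females). Nrros rose by 0.77 in males (SE 0.26, edgeR padj = 0.0386), with 0.12 in females, where it did not pass. The difference between the male and the female response was called by edgeR for none of the 25 genes chosen by rule from these lists (padj 0.109 to 0.996). Over all tested genes that call was made for 0.0192%. Between the axotomy groups 6 of the 25 were called higher in males, beside 1.16% of all tested genes. These were Serpinh1, Vcan, Col3a1, Ecm2, Pcolce and Egfr (edgeR padj from 0.0498 to 0.0936). The 25 were chosen by their male response, which rests on the same male axotomy libraries, so the count of 6 is not independent of that choice. The lists were drawn up with earlier results of these data known.

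**Figure D5:**
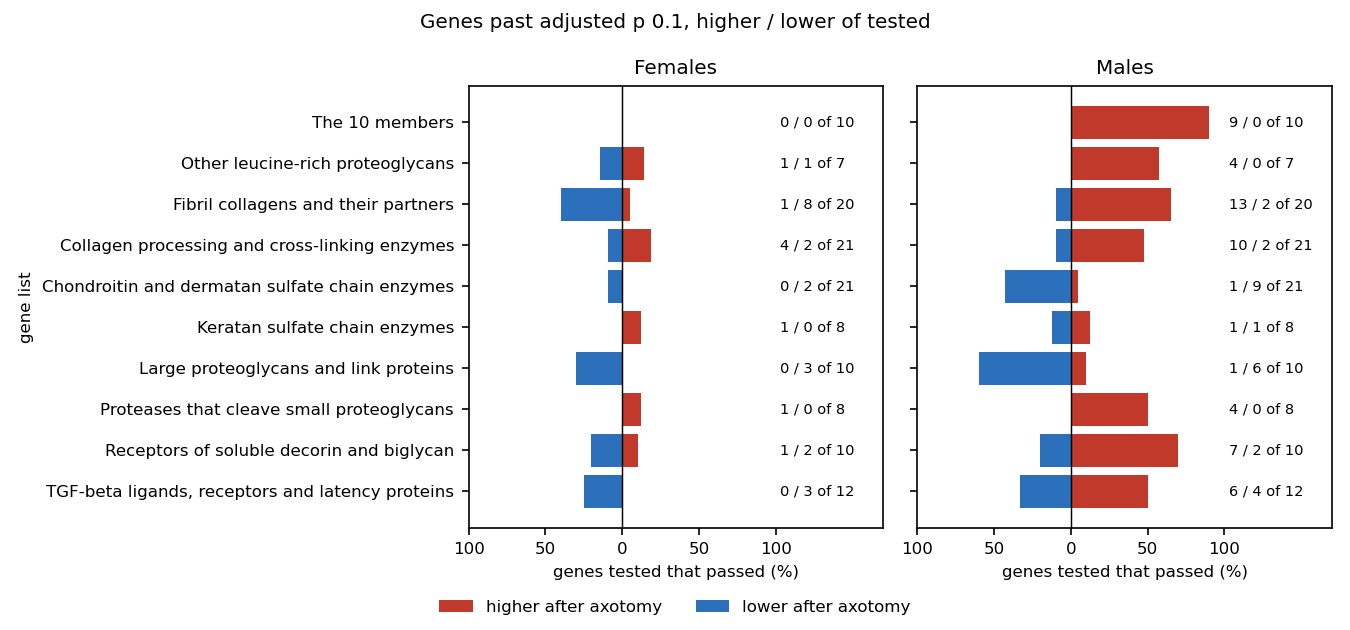
Share of the tested genes of each list that passed an adjusted p under 0.1, higher (right, red) or lower (left, blue) after axotomy, in females and males, with the counts printed as higher / lower of tested. In males 9 of 10 members, 13 of 20 collagen genes and 7 of 10 receptors were higher, beside 21.8% of all tested genes. There 9 of 21 chondroitin and dermatan sulfate enzymes were lower, beside 20.1%.

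The promoters of the members had no motif in common among the few that were searched. The RefSeq table (GRCm38.p6) held the start of 8 of the 10 genes, and Dcn and Lum were not matched. Over the 250 bases before the start and on both strands, the letters TATAAA were found in Ogn and Aspn, beside 12.4% of 32851 promoters. The letters GGAATG (TEAD) were found in Ogn, beside 12.6%, GGGCGG (a GC box) in Podn and Bgn, beside 32.7%, and TGANTCA (AP-1) in none, beside 6.75%. The window of Ogn, the member with the highest level among those matched, is shown with these matches in capitals. It lies at chr13:49607765-49608014 on the plus strand of GRCm38.p6, and its TATAAA matches on the plus and the minus strand overlap.
Ogn: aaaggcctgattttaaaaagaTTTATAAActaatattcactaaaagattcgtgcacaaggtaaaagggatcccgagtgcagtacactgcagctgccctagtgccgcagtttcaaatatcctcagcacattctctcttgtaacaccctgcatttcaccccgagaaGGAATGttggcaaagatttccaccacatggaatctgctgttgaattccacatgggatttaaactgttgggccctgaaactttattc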

How the data were processed

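RNA of L4 and L5 DRG was made into TruSeq stranded, poly-A selected libraries and sequenced in paired ends by the authors, who trimmed reads with Trimmomatic 0.39 and assigned them to Gencode M27 transcripts with Salmon 1.3.0 in quasi-mapping mode, with correction of sequence and GC bias (tools and versions per the labels' processing notes). The strand setting was not given in the sources used here. Deposited files hold, per transcript, estimated counts of read pairs (not normalized), an effective length, and TPM as the authors' Salmon run computed it.

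Estimated counts were summed per gene symbol and identifier, rounded and tested in R 4.3.3 with edgeR 4.0.16 (TMM, effective length as an offset, filterByExpr with a minimum count of 10, robust quasi-likelihood F test) in 1 fit of all 10 libraries with 4 group means. Adjustment followed Benjamini and Hochberg over 20836 genes, with a threshold of 0.1, and SE were taken from the F values. DESeq2 1.42.0 served as an alternative because the study used it. Batch correction by RUVseq and removeBatchEffect, named by the study without settings, was not repeated. TPM was summed per gene and described without a test, with SD over 2 or 3 libraries. A total of 3 counts corresponds to 0.0333 to 0.0543 CPM, which covers counting error only. Libraries with the same replicate number were checked for pairing: over 13 pairs the correlation of their deviations from the group means ran from −0.09 to 0.13, so no pairing entered the fit.

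The 10 members were named with their value in every library. From each other list, the counts in each direction and up to 3 genes with the largest absolute male log2FC among those called in males, at 1 TPM or more in a group, were named. Genes of like pattern were the 10 with the highest mean Pearson r with the members, among genes tested at 1 TPM or more in every group. The members and lists were chosen with earlier results of these data known. Sequences came from Gencode M21 transcripts and from RefSeq promoters, matched by symbol.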

Additional observations from a re-analysis of the deposited data

Results flagged for a closer look

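For 4 members every axotomy library was above every sham library in males and below every sham library in females on the TMM scale, beside 1.44% of all tested genes. Taken singly, the male position was held by 29.3% of all tested genes and the female one by 25.9%. The fitted difference between the male and the female log2FC was 1.31 for Prelp, 1.15 for Omd, 0.77 for Bgn and 0.74 for Podn. The test of that difference did not pass for any of them by edgeR (padj = 0.194, 0.291, 0.296 and 0.421). Without male axotomy 2 it passed for all 4 (edgeR padj = 0.0174, 0.0306, 0.0459 and 0.0650), beside 5.71% of all tested genes called higher. Among the 10 fits that left out 1 library, Omd, Bgn and Podn passed in that 1 only, and Prelp passed in 2.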

How the results depend on the processing

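The male result held its direction for all 10 members under every alternative, with 6 to 9 members called when 1 library was left out (6 without male sham 1 or 2), 8 with no filter on low counts, 8 with no length offset, 7 with the compared libraries alone and 9 with DESeq2 or its size factors. The share of all genes called higher in males moved too, from 11.2% to 25.2% when 1 library was left out (11.2% and 11.3% without male sham 1 or 2), to 11.9% with no filter, 23.1% with no length offset, 17.8% with the compared libraries alone and 20.8% with DESeq2. In females 1 member (Prelp, lower) was called by DESeq2 and with the compared libraries alone, and 0 to 1 when 1 library was left out, beside 13%, 13.3% and 1.31% to 13.3% of all genes called lower. For the response difference DESeq2 called 5 (2.43% of all genes called higher), leaving out 1 library gave 0 to 9 (0% to 5.71%), and fitting the compared libraries alone could give no value. Between the axotomy groups, where 1 member was called, 0 were called with no filter and with the compared libraries alone, 4 by DESeq2, 2 with no length offset and 0 to 9 when 1 library was left out, beside 1.34%, 0.116%, 4.56%, 1.67% and 0.0817% to 8.81% of all genes called higher. Between the sham groups 1 member was lower with the compared libraries alone (0.106% of all genes). The cause of these changes was not tested.

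Libraries with the same replicate number had low correlations (−0.09 to 0.13). With 2 libraries in each sham group, this check cannot exclude pairing. With the replicate block 7 members were called higher in males, 1 lower in females, 1 higher in the response difference and 2 higher between the axotomy groups, beside 21.4%, 12%, 0.37% and 2.18% of all genes, and the female values of Dpt (−0.028) and Lum (−0.0011) changed sign.

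Values that changed sign lay near 0 or belonged to Fmod. When 1 library was left out, the female log2FC ran from −0.19 to 0.33 for Dpt and from −0.18 to 0.28 for Ogn, with the sign changed without female sham 2 or female axotomy 1. Fmod ran from −0.17 (without male axotomy 3) to 0.57 between the axotomy groups, from −0.41 (without male sham 2) to 0.45 between the shams and from −0.24 (without male axotomy 3) to 0.70 in the response difference. Among the values of single members under alternatives, 709 kept their direction and side of the threshold, 33 lost a call, 35 gained one and 13 changed sign. Depth limits Dpt, Omd and Aspn most, at a few TPM, and the sham groups hold 2 libraries of each sex.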
